A study of Homo sapiens with 12 samples.

Results

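A set of 9 transcription factor genes was followed in human embryonic stem cells (hESCs) of the line WA26 with and without UBQLN1, a shuttle protein that carries ubiquitinated proteins to the proteasome. They were DBX1, OLIG3, OLIG2, PAX6 and LHX1, which pattern the developing spinal cord, and GATA2, GATA3, TAL1 and LMO2, which work together in blood formation. DBX1, OLIG3, GATA2 and TAL1 were selected on their higher counts in UBQLN1 knockout (KO) than in wild type (WT) cells, and the other 5 were added as partners or neighbours in the same programs. The 9 genes were taken from the 28278 genes of the count table, of which 15916 passed a filter on low counts. The filter kept 7 of the 9 and left out PAX6 and LHX1.

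The groups were untreated WT cells at normal O2, untreated KO cells at normal O2, KO cells cultured in 5% O2, and NAC-treated KO cells (NAC is N-acetylcysteine, an antioxidant), with 2 RNA-sequencing libraries for each of these 4. All cells were of the WA26 line, the KO was made with CRISPR-Cas9 from picked clones, and the clone behind each library is not given in the sources used here. WT cells at 5% O2 or with NAC were not analysed here, so neither treatment could be set against the same treatment in WT. In the study's text, RNA sequencing at 5% O2 followed a culture of hours. Its scheme shows NAC and low oxygen kept up over passages, with DMSO as a negative control. The labels give neither duration nor vehicle, so agent, duration and vehicle cannot be told apart between the treatments. The libraries of a group are called biological replicates in the study's account of the oxygen comparison, while the labels do not say whether they came from separate cultures or clones. The p-values measure only the spread between these libraries.

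In the developing spinal cord, progenitors along the dorsal to ventral axis carry different sets of homeodomain and basic helix-loop-helix factors, and each set gives rise to its own classes of neurons. DBX1 marks progenitors near the boundary of the dorsal and ventral parts, OLIG3 marks the most dorsal progenitors, and OLIG2 marks those that form motor neurons and oligodendrocytes. In blood formation, the basic helix-loop-helix factor TAL1 and the zinc finger factor GATA2 sit on DNA in a complex that the adaptors LMO2 and LDB1 hold together. These programs meet in a class of ventral spinal interneurons that carries TAL1, GATA2 and GATA3.

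The promoter windows of the 4 selected genes are shown as a description. Their shared rise in KO was fixed by how they were selected, so it is no sign that they move together. Each window holds the 250 bases before the 5′-most start given by RefSeq on GRCh38.p14, written 5′ to 3′ on the strand of the gene. Capitals mark matches on either strand to GATA, the core of the site that GATA factors bind, to CANNTG, the E-box that basic helix-loop-helix factors bind, or to ACGTG, the core of the hypoxia response element.
DBX1, chr11:20160476-20160725, minus strand: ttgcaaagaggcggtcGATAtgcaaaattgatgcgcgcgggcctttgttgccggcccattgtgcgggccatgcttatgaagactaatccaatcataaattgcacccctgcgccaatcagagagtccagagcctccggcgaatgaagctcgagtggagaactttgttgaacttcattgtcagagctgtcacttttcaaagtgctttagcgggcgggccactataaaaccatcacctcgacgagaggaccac
OLIG3, chr6:137494395-137494644, minus strand: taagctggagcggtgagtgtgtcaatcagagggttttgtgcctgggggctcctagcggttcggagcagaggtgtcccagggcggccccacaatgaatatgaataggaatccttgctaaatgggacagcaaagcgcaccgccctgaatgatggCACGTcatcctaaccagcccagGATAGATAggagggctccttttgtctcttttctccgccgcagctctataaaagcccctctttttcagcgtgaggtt
GATA2, chr3:128493202-128493451, minus strand: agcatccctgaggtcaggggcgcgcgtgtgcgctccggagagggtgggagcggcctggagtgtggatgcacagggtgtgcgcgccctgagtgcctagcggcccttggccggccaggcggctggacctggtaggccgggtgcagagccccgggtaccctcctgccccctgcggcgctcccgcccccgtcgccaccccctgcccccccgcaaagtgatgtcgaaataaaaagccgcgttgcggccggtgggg
TAL1, chr1:47232336-47232585, minus strand: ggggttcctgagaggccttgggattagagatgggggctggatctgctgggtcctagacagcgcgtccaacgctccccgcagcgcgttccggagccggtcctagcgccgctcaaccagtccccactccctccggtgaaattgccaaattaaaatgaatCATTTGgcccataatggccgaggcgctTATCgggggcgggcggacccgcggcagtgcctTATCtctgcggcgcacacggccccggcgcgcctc

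The windows of OLIG3 and TAL1 held 2 GATA matches each and that of DBX1 held 1, while that of GATA2 held none. Of all 35116 windows of the same length, 45.6% held GATA, 61.8% held CANNTG and 18.5% held ACGTG. TAL1 held 1 CANNTG and OLIG3 held 1 ACGTG. The GATA matches of OLIG3 abut, and no match overlapped another. The GC content was 51.6% for DBX1, 54.0% for OLIG3, 72.8% for GATA2 and 64.8% for TAL1, against a median of 58.0% over all windows. No letters searched here were shared by all 4 windows. Windows for PAX6 and GATA3 were also in the table, and OLIG2, LHX1 and LMO2 are named only.

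The 8 libraries held from 31236968 to 41639350 counts, and the replicates of every group differed by more than sampling noise (chi-square divided by its degrees of freedom, 9.53 to 30.7). UBQLN1, the targeted gene, had 7382 and 7591 counts in WT and from 1476 to 2392 in the 6 KO libraries, so that every KO library lay below both WT libraries. The cells carried pluripotency markers, the 15 of the list summing to between 6759 and 8252 CPM (counts relative to the TMM-scaled library size) and none at 0 in any library. PTPRC, a surface protein of white blood cells, had at most 4 counts in a library, while 11 to 13 of 27 genes listed for blood formation exceeded 1 CPM. Of 29 HOX genes of hindbrain and spinal cord, 2 passed the filter on low counts, and the 29 summed to at most 1.65 CPM in a library.

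One library stood apart. KO with NAC replicate 1 held 1809 counts of DCN, 1114 of COL3A1, 403 of PRRX1, 148 of LUM and 86 of FAP, genes of fibroblasts and other mesenchymal cells. In the other 7 libraries DCN, PRRX1, LUM and FAP had no count and COL3A1 had at most 8. The 15 mesenchymal and fibroblast markers summed to 1180 CPM in that library, with none at 0, and to between 530.0 and 644 CPM in the other 7, with 4 to 6 markers at 0. UBQLN1 stood at 62.4 CPM in that library and 49.3 in KO with NAC replicate 2. It stood at 42.3 and 43.5 CPM in untreated KO and 51.9 and 47.7 at 5% O2. With NAC it was higher than in untreated KO (log2 fold change 0.38, SE 0.12, adjusted p = 0.0196 by edgeR's quasi-likelihood test), as were 23.8% of all tested genes. The part of KO with NAC replicate 1 in the results below was not tested, and values without that library are given beside the results with NAC.

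**Figure D1:**
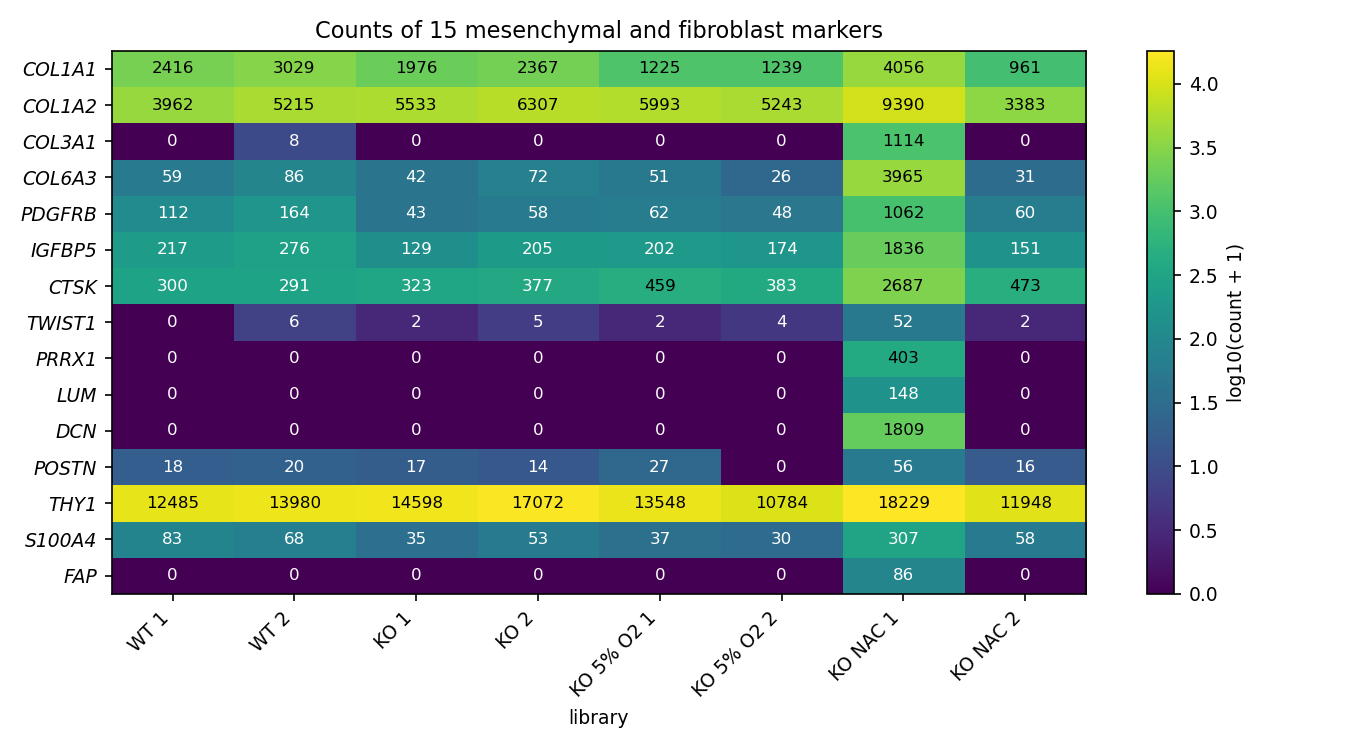
Counts of 15 mesenchymal and fibroblast markers (rows) in each of the 8 libraries (columns), with the colour on a log10(count + 1) scale. DCN, PRRX1, LUM and FAP have counts only in the column of KO NAC replicate 1, where DCN reaches 1809.

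The spinal cord factors differed widely in level. DBX1 (chromosome 11, 20156155 to 20160475, minus strand, hg38) stood at 2.52 and 2.10 CPM in WT and at 5.23 and 4.83 CPM in KO. It stood at 4.81 and 4.33 CPM in KO at 5% O2 and at 2.87 and 5.21 CPM in KO with NAC. Both libraries of KO and both of KO at 5% O2 were above WT, as for 27.7% and 26.9% of all tested genes. The NAC libraries fell apart, replicate 1 near WT and replicate 2 near untreated KO. The fitted log2 difference between KO and WT that chose the gene was 1.12 (SE 0.29).

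OLIG3 (chromosome 6, 137492199 to 137494394, minus strand) had the highest group mean of the 9 per length of transcript, although in KO with NAC replicate 1 it lay below DBX1, at 1.63 against 2.31 RPKM (CPM divided by the length of the longest transcript in kilobases). Its level was 4.74 and 5.73 CPM in WT, 19.7 and 21.0 CPM in KO, 22.8 and 22.4 CPM in KO at 5% O2, and 3.58 and 12.8 CPM in KO with NAC. The 4 KO libraries without NAC lay within a narrow band, while the NAC libraries differed 3.59-fold, replicate 1 below both WT libraries and replicate 2 above them. The log2 difference between KO and WT was 1.96 (SE 0.40).

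OLIG2 (chromosome 21, 33025935 to 33029196, plus strand) rested on 12 to 54 counts. It stood at 0.54 and 0.52 CPM in WT, 0.43 and 0.39 in KO, 0.29 and 0.81 in KO at 5% O2 and 1.41 and 0.63 in KO with NAC. The highest value was in KO with NAC replicate 1, the library with the fibroblast markers. OLIG1, the neighbouring gene of the same family whose start lies 44.2 kb away, had 28 and 18 counts in WT, 2 and 7 in KO, 20 and 14 in KO at 5% O2, and 22 and 18 in KO with NAC.

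PAX6 and LHX1 were at the edge of detection. PAX6, a factor of eye, forebrain and ventral spinal cord, had 0 to 4 counts in every library, and LHX1, a LIM homeodomain factor of spinal interneurons, had 0 to 10. A count of 0 allows a level of up to 0.0729 to 0.1 CPM across the 8 libraries, taking 3 counts as the limit. The exons of PAX6 share 25.4% of their bases with ELP4 on the opposite strand, and counting that ignores strand leaves such reads out. LHX1 is further limited by the genome: of all 31-base words in the LHX1 transcript, 95.8% are found a second time on an alternate-locus scaffold of hg38, and reads that match both places would be dropped. For the other 8 genes that share was at most 0.4%.

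Among the blood factors, GATA2 (chromosome 3, 128479427 to 128493201, minus strand) stood at 1.35 and 1.76 CPM in WT and 2.71 and 4.40 CPM in KO. It stood at 1.91 and 3.02 CPM in KO at 5% O2 and 1.12 and 0.47 CPM in KO with NAC. Both NAC libraries lay below every other library, WT included. Against WT alone, 32.0% of all tested genes lay lower with NAC without overlap. The log2 difference between KO and WT was 1.19 (SE 0.42), with the KO replicates 1.62-fold apart.

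TAL1 (chromosome 1, 47216290 to 47232225, minus strand) had another order of groups. Its level was 1.56 and 1.63 CPM in WT, 3.82 and 4.15 in KO, 4.54 and 5.05 in KO at 5% O2, and 5.64 and 10.99 in KO with NAC. No pair of groups overlapped, and WT was lowest and KO with NAC highest. Against WT alone, 33.6% of all tested genes lay higher without overlap with NAC and 26.9% at 5% O2. The log2 difference between KO and WT was 1.32 (SE 0.30). A long noncoding RNA on the opposite strand shares 14.8% of the exon bases of TAL1 and is not among the genes of the count table. If the annotation used lacked it, counting that ignores strand would give its reads there to TAL1. If not, reads there would be left out.

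GATA3 (chromosome 10, 8045378 to 8075198, plus strand), a factor of T cells and of the same spinal interneurons, was not among the 4 selected on KO against WT. It stood at 0.69 and 0.78 CPM in WT, 1.82 and 1.48 in KO, 1.23 and 1.59 in KO at 5% O2, and 1.10 and 0.60 in KO with NAC. Its log2 difference between KO and WT of 1.16 (SE 0.42) lay inside the range of the selected 4, which ran from 1.12 to 1.96. GATA3 was added as a partner with earlier results of these data known, so this is a description and was not tested. LMO2 (chromosome 11, 33858576 to 33892076, minus strand) went the other way, at 2.13 and 2.54 CPM in WT, 1.71 and 1.80 in KO, 0.96 and 0.31 in KO at 5% O2, and 0.89 and 0.87 in KO with NAC. Both treated KO groups were below both untreated groups. Against untreated KO, 30.3% of all tested genes lay lower without overlap at 5% O2 and 34.0% with NAC. Against WT these shares were 26.0% and 32.0%. The 5% O2 level of LMO2 rested on 39 and 10 counts. The log2 difference between KO and WT was -0.41 (SE 0.43) for LMO2 and -0.36 (SE 0.64) for OLIG2.

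**Figure D2:**
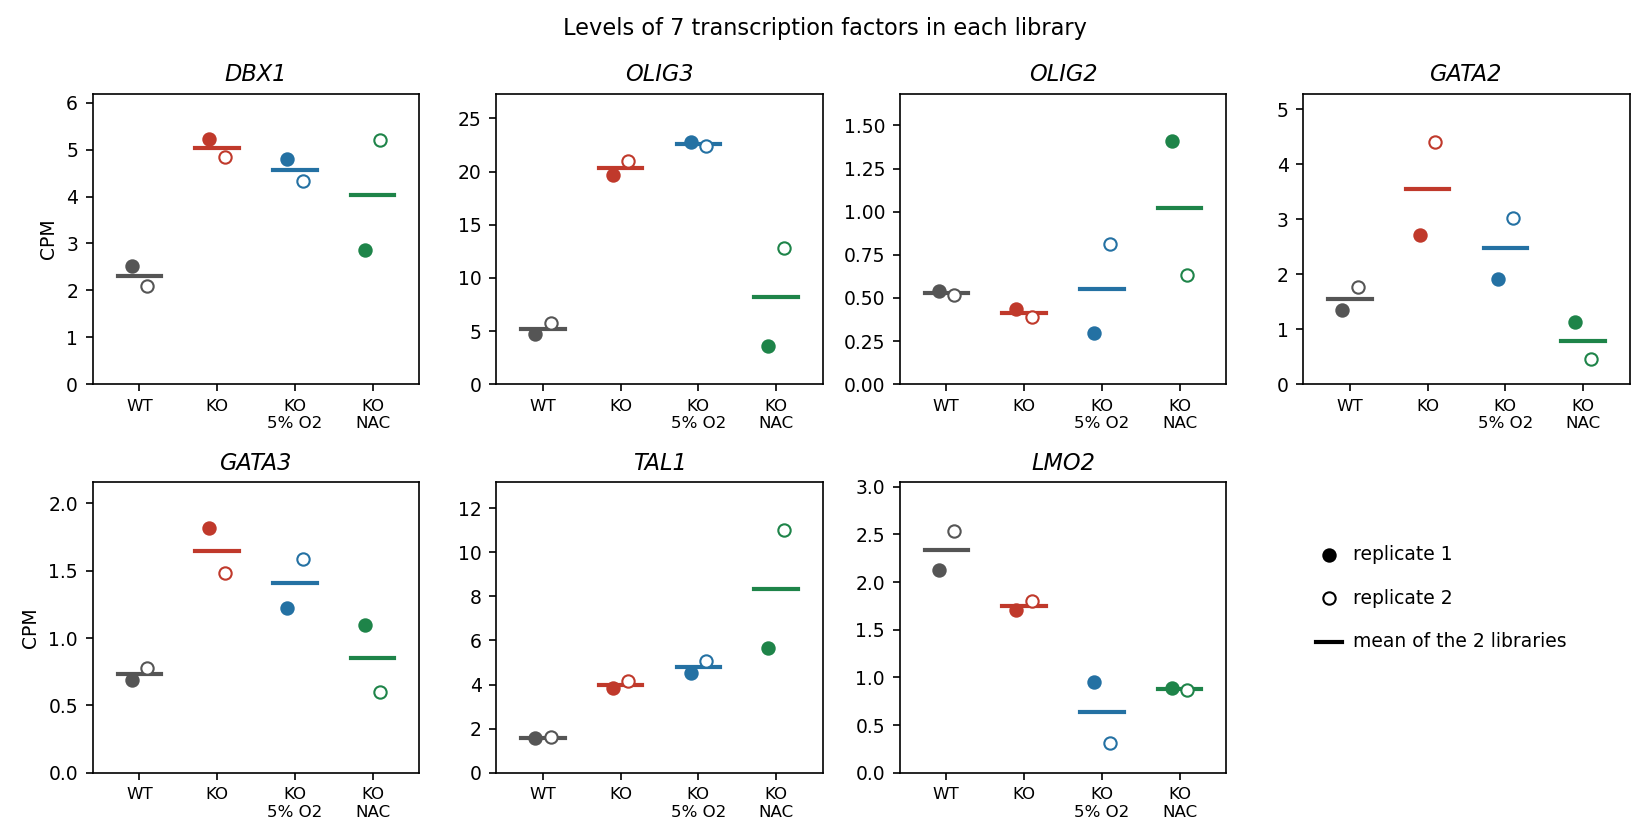
Level in CPM (vertical axes, each starting at 0) of the 7 genes that passed the filter, by group. Filled points are replicate 1, open points replicate 2 and bars the mean of both. OLIG3 stands at 19.7 and 21.0 CPM in KO and at 4.74 and 5.73 CPM in WT, while TAL1 is highest in KO with NAC at 5.64 and 10.99 CPM.

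Between genes, levels were compared as RPKM. In KO, OLIG3 was at 9.28 ± 0.429 (SD, n = 2) RPKM and DBX1 at 4.05 ± 0.226 (SD, n = 2). GATA2 at 0.936 ± 0.314, LMO2 at 0.842 ± 0.0305 and TAL1 at 0.797 ± 0.047 RPKM (SD, n = 2 each) followed, and their libraries overlapped. GATA3 was at 0.535 ± 0.0767 and OLIG2 at 0.126 ± 0.00976 RPKM (SD, n = 2 each). In WT the order of the means was OLIG3, DBX1, LMO2, GATA2, TAL1, GATA3 and OLIG2, from 2.38 down to 0.162 RPKM.

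KO against WT chose 4 of the genes, and the other members were chosen beside them with results known, so no test of the 9 is given for it. By an absolute log2 fold change over 1 with an unadjusted p under 0.05, the criteria of the study, 1.11% of the tested genes were higher in KO, and by adjusted p 1.96% changed in either direction. In bulk RNA, more cells that carry a factor and more RNA of it per cell cannot be told apart.

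Other genes of the same programs were read against the 1.96% of all tested genes called in KO, and the 1.34% called higher. The lists used here and below were written with earlier results of these data known, so the counts per list are a description. Among 15 tested genes of neural tube progenitor domains, members left out, 2 rose and none fell. PAX7, a factor of dorsal progenitors, stood at 22.3 and 23.6 CPM in WT and 41.8 and 45.8 CPM in KO, a log2 fold change of 0.93 (SE 0.11, adjusted p = 0.000843 by edgeR's quasi-likelihood test). NES, the intermediate filament of neural progenitors, rose by 0.83 (SE 0.13, adjusted p = 0.00769) on the log2 scale. The median log2 fold change of the 15 was 0.06, beside -0.0024 over all tested genes.

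EN1, a homeodomain factor of ventral spinal interneurons and of the midbrain, was the one gene called among 13 of spinal interneurons and motor neurons. Its level was 0.66 and 0.73 CPM in WT, 5.72 and 6.22 in KO, 5.35 and 5.73 in KO at 5% O2, and 2.74 and 4.38 in KO with NAC. All 6 KO libraries lay above both WT libraries. The log2 fold change in KO was 3.10 (SE 0.29, adjusted p = 0.000223), above that of each of the 7 members that passed the filter. The median over the 13 was 0.40. Among 18 neural progenitor markers, SIX6, an eye and forebrain factor, rose by 1.17 (SE 0.14, adjusted p = 0.00101), NES rose as above, and STMN2, a neuronal tubulin-binding protein, fell by 1.71 (SE 0.28, adjusted p = 0.0113). PAX7, EN1 and SIX6 passed under every alternative run. NES lost the call without WT replicate 2 (adjusted p = 0.152) and without each KO library (0.113 and 0.0617), and STMN2 lost it without any one of the WT and KO libraries (0.102 to 0.157).

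On the blood side, 1 of 16 tested genes of the blood-forming program rose in KO. This was ERG, a factor of blood stem cells and endothelium, at 11.5 and 10.6 CPM in WT and 16.7 and 17.6 in KO (log2 fold change 0.63, SE 0.14, adjusted p = 0.0385). The call of ERG was lost when any one library of WT, KO or KO at 5% O2 was left out (adjusted p from 0.0796 to 0.292) and after the removal of a length and GC trend (0.58, adjusted p = 0.0617). None of 19 partners of TAL1 and the GATA factors was called, with a median log2 fold change of 0.11. Of 9 endothelial markers, KDR, the main receptor of vascular endothelial growth factor, fell by 0.80 (SE 0.10, adjusted p = 0.00118). No call was made among 10 mesoderm markers, 6 trophoblast and amnion markers, 9 mesenchymal markers, 15 pluripotency markers or the 2 tested HOX genes.

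At 5% O2 the selected genes lay above both WT libraries in both libraries, as for 26.9% of all tested genes. These 4 are set here against the WT and KO libraries that chose them and are described without a test. The log2 difference from untreated KO was -0.14 (SE 0.28) for DBX1, 0.15 (SE 0.37) for OLIG3, -0.53 (SE 0.41) for GATA2 and 0.26 (SE 0.29) for TAL1. Both 5% O2 libraries were above both KO libraries for OLIG3 and TAL1 and below them for DBX1 and LMO2, as for 30.7% and 30.3% of all tested genes.

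Of the 3 partners that could be tested against untreated KO at 5% O2, none passed an adjusted p of 0.05, beside 7.81% of all tested genes. LMO2 was nearest, at 63 and 74 counts in KO and 39 and 10 at 5% O2, a log2 fold change of -1.43 (SE 0.46, unadjusted p = 0.00945, adjusted p = 0.0783). It met the criteria of the study, as did 1.21% of all tested genes on the lower side. Its size depended on the library kept at 5% O2, at -2.48 without replicate 1 and -0.87 without replicate 2. The adjusted p was 0.0443 when only those 4 libraries were fitted, and 0.0364 and 0.036 without each library of KO with NAC. GATA3 differed by -0.23 (SE 0.40, adjusted p = 0.780) and OLIG2 by 0.40 (SE 0.64, adjusted p = 0.754), with 95% intervals from -1.11 to 0.66 and from -1.0 to 1.81.

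Around them, LMX1B, a factor of dorsal spinal interneurons, fell by 0.86 (SE 0.17, adjusted p = 0.0152) at 5% O2, and TLX1, of the same neurons, fell by 0.62 (SE 0.17, adjusted p = 0.0489). These were 2 of 13 tested genes of spinal neurons, beside 4.13% of all tested genes called lower. NES fell by 0.81 (SE 0.13, adjusted p = 0.00812), the 1 called gene among 15 of progenitor domains. Among the 19 partners of TAL1 and the GATA factors, TCF3, an E protein that pairs with TAL1, fell by 0.38 (SE 0.08, adjusted p = 0.0213) and SSBP4 fell by 0.43 (SE 0.10, adjusted p = 0.0256). In the blood list, KIT, a receptor of blood stem cells, rose by 0.32 (SE 0.09, adjusted p = 0.0454). Without KO at 5% O2 replicate 1 none of LMX1B, TLX1, NES, TCF3, SSBP4 and KIT passed, with adjusted p from 0.130 to 0.305. Once a trend with length and GC content had been taken out, none of the 13 genes of spinal neurons and none of the 19 partners was called.

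**Figure D3:**
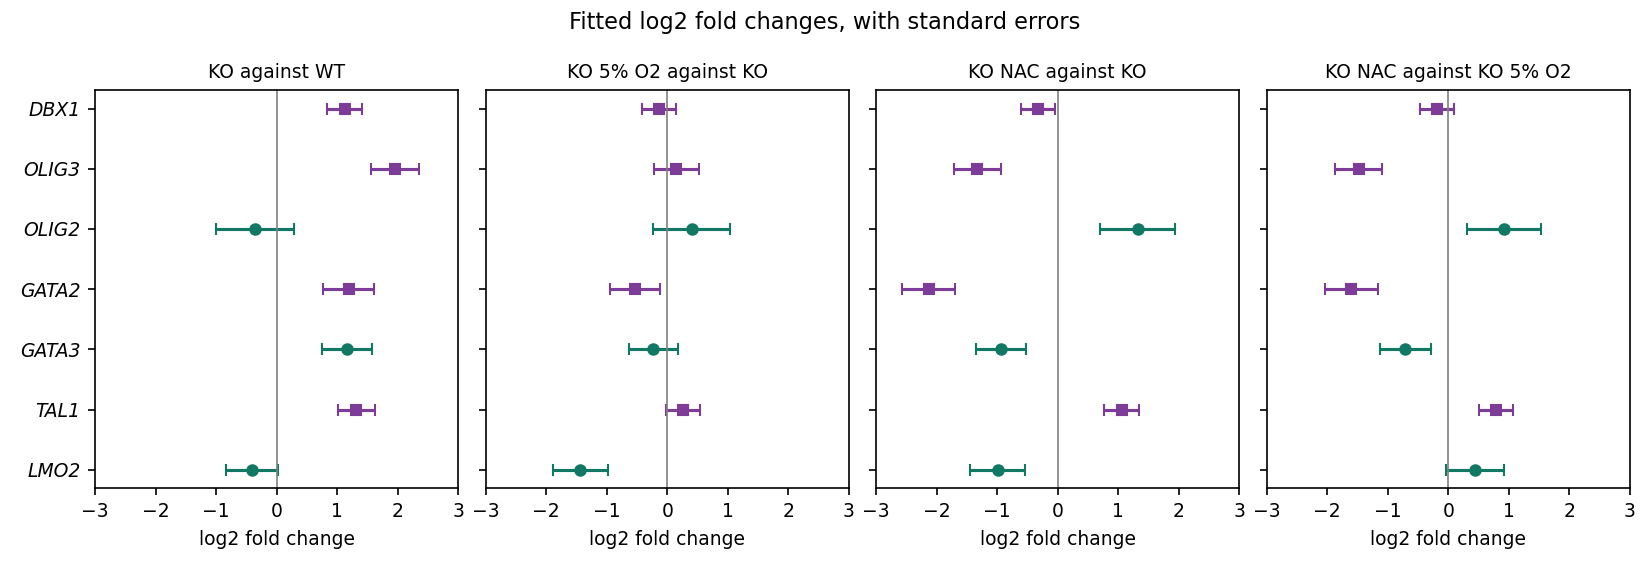
Fitted log2 fold change (horizontal axes) of 7 genes in 4 comparisons, with bars of 1 standard error. Squares are the genes selected on KO against WT, for which the first 3 panels are a description, and circles are partners. OLIG3 and GATA2 lie left of 0 and TAL1 right of it in both comparisons with NAC.

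With NAC the factors that were high in KO parted. The log2 difference between KO with NAC and untreated KO was -2.13 (SE 0.44) for GATA2, -1.33 (SE 0.39) for OLIG3, -0.32 (SE 0.28) for DBX1 and 1.05 (SE 0.28) for TAL1, given without a test for the same reason. When NAC replicate 1, the library with the fibroblast markers, was left out, the values were -2.92 for GATA2, -0.67 for OLIG3, 0.05 for DBX1 and 1.46 for TAL1. Without NAC replicate 2 they were -1.66, -2.51, -0.81 and 0.50. The direction held with either library for GATA2, OLIG3 and TAL1, and for DBX1 it rested on replicate 1. Both NAC libraries were below both KO libraries for OLIG3, GATA2, GATA3 and LMO2, as for 34.0% of all tested genes, and above them for TAL1 and OLIG2, as for 36.2%.

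None of the 3 tested partners passed an adjusted p of 0.05 with NAC against untreated KO, beside 44.6% of all tested genes. By edgeR's quasi-likelihood test, GATA3 differed by -0.94 (SE 0.42, unadjusted p = 0.0443, adjusted p = 0.0882), LMO2 by -0.99 (SE 0.45, unadjusted p = 0.0497, adjusted p = 0.0969) and OLIG2 by 1.32 (SE 0.62, adjusted p = 0.108). DESeq2 called none of the 3. With NAC replicate 1 left out, GATA3 was at -1.45 (adjusted p = 0.0330), LMO2 at -1.01 (adjusted p = 0.156) and OLIG2 at 0.62 (adjusted p = 0.562). Without NAC replicate 2, OLIG2 was at 1.77 (adjusted p = 0.0377) and GATA3 at -0.59 (adjusted p = 0.314).

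KO with NAC against KO at 5% O2 is the comparison whose libraries did not choose the genes, and all 7 were tested in it. Duration of treatment and vehicle may also differ between these groups. OLIG3 and GATA2 fell, which is 2 of 7, beside 29.1% of all tested genes called in either direction and 13.6% called lower. OLIG3 stood at 8.20 ± 6.54 CPM (SD, n = 2) with NAC and 22.6 ± 0.264 CPM (SD, n = 2) at 5% O2. It was 2.79-fold lower with NAC (log2 fold change -1.48, SE 0.39, adjusted p = 0.0151). It was also lower without NAC replicate 1 (-0.82, adjusted p = 0.00235) and without NAC replicate 2 (-2.66, adjusted p = 1.109e-06), and it lost the call without either library at 5% O2 (adjusted p = 0.0734 and 0.0992).

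GATA2 stood at 0.795 ± 0.463 CPM (SD, n = 2) with NAC and 2.47 ± 0.785 CPM (SD, n = 2) at 5% O2, and was 3.03-fold lower with NAC (log2 fold change -1.60, SE 0.44, adjusted p = 0.0185). The value was -2.39 (adjusted p = 0.00395) without NAC replicate 1. The call was lost without NAC replicate 2 (-1.13, adjusted p = 0.0572), without the second library at 5% O2 (-1.24, adjusted p = 0.171), with only the 4 libraries fitted (adjusted p = 0.051) and after the removal of a length and GC trend (-1.33, adjusted p = 0.0584).

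TAL1 was higher with NAC in both libraries, 8.31 ± 3.78 against 4.79 ± 0.361 CPM (SD, n = 2 each), and missed the threshold (log2 fold change 0.79, SE 0.28, adjusted p = 0.0552). Without NAC replicate 1 it passed (1.195, adjusted p = 0.00205), and without NAC replicate 2 it was at 0.24 (adjusted p = 0.512). DBX1 (-0.19), GATA3 (-0.71), LMO2 (0.44) and OLIG2 (0.92) did not pass, with adjusted p from 0.230 to 0.665. The 95% interval of the DBX1 difference ran from -0.80 to 0.43 and that of GATA3 from -1.63 to 0.21. Leaving out NAC replicate 1 put DBX1 at 0.18 (adjusted p = 0.633), GATA3 at -1.22 (adjusted p = 0.0913), LMO2 at 0.41 (adjusted p = 0.632) and OLIG2 at 0.22 (adjusted p = 0.866). The NAC libraries were below both 5% O2 libraries for OLIG3, GATA2 and GATA3, as for 29.2% of all tested genes, and above them for TAL1, as for 33.4%.

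Set beside WT, the treated KO groups had these log2 differences, given as values only. At 5% O2 they were 2.11 for OLIG3, 1.58 for TAL1, 0.99 for DBX1, 0.93 for GATA3, 0.66 for GATA2, 0.04 for OLIG2 and -1.85 for LMO2. With NAC they were 2.37 for TAL1, 0.96 for OLIG2, 0.80 for DBX1, 0.63 for OLIG3, 0.22 for GATA3, -0.94 for GATA2 and -1.41 for LMO2. Leaving out NAC replicate 1 gave 2.78 for TAL1, 1.29 for OLIG3, 1.17 for DBX1, 0.26 for OLIG2, -0.29 for GATA3, -1.73 for GATA2 and -1.43 for LMO2. OLIG3 with NAC was at -0.55 without NAC replicate 2, so that its direction against WT rested on that library, and the direction of GATA3 rested on replicate 1. OLIG2 at 5% O2 was at -0.84 without the second library at 5% O2. These comparisons share the WT libraries with KO against WT.

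Of 13 tested genes of spinal neurons, 8 fell with NAC against untreated KO, none rose and 5 did not pass, beside 20.8% of all tested genes called lower and 23.8% called higher. As the lists were written with earlier results known, this too is a description. The list had a median log2 fold change of -0.86 beside 0.02 over all tested genes. LMX1B stood at 32.3 and 32.8 CPM in KO and 6.19 and 6.61 with NAC (log2 fold change -2.35, SE 0.18, adjusted p = 1.28e-05). LHX4, a LIM homeodomain factor of motor neurons and ventral interneurons, stood at 22.4 and 21.2 CPM in KO and 2.71 and 6.21 with NAC (log2 fold change -2.31, SE 0.27, adjusted p = 5.47e-05). LMX1B was at -2.30 and LHX4 at -1.81 without NAC replicate 1. LHX5, a factor of dorsal interneurons, fell by 1.02 (SE 0.19, adjusted p = 0.000941), and was at -0.69 (adjusted p = 0.000787) without that library. EN1 fell by 0.75 (SE 0.25, adjusted p = 0.0301), and was at -0.45 (adjusted p = 0.167) without NAC replicate 1. Without that library 7 of 17 tested genes fell, and after the removal of a length and GC trend 6 of 13.

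Among the 15 genes of progenitor domains, 4 fell with NAC and 1, OLIG1, rose, beside the same 20.8% and 23.8% of all genes. With NAC replicate 1 left out, 4 of 16 fell and 2 rose. NES fell by 1.78 (SE 0.13, adjusted p = 1.28e-05), NKX6-2, a factor of ventral progenitors, by 0.97 (SE 0.33, adjusted p = 0.0311), PAX7 by 0.48 (SE 0.11, adjusted p = 0.00307) and SP8 by 0.48 (SE 0.12, adjusted p = 0.00566). After the removal of a length and GC trend PAX7 was at 0.03 (adjusted p = 0.860), and 1 of the 15 fell and 2 rose. Once NAC replicate 1 was left out, NES was at -1.77, PAX7 at -0.56 and SP8 at -0.62, all past the threshold, and NKX6-2 at -0.72 (adjusted p = 0.139). The call of OLIG1 (adjusted p = 0.0195, and 0.0473 without that library) rests on 2 and 7 counts in KO.

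Of 19 tested partners of TAL1 and the GATA factors, 10 fell with NAC and 1 rose, beside 20.8% of all tested genes called lower and 23.8% called higher, and their median log2 fold change was -0.50. NHLH2, a basic helix-loop-helix factor of neurons, fell by 1.53 (SE 0.34, adjusted p = 0.00304). CBFA2T3, a corepressor of the TAL1 complex, fell by 1.45 (SE 0.32, adjusted p = 0.00326), and ZFPM1, the cofactor of GATA factors known as FOG-1, fell by 1.23 (SE 0.17, adjusted p = 0.000135). CBFA2T3 was at -0.96 (adjusted p = 0.00781) without NAC replicate 1. TCF3 fell by 0.93 (SE 0.08, adjusted p = 1.73e-05) and LDB1 by 0.63 (SE 0.10, adjusted p = 0.000276), while SSBP2, which stabilises LDB1, rose by 0.64 (SE 0.15, adjusted p = 0.00436). With NAC replicate 1 left out, NHLH2 was at -1.44, ZFPM1 at -1.15, TCF3 at -0.89, LDB1 at -0.61 and SSBP2 at 0.56, all past the threshold. TAL1 itself was at its highest in these libraries. Without NAC replicate 1, 10 fell and 2 rose of 20 tested, and after the removal of a length and GC trend 7 fell and 1 rose of 19.

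**Figure D4:**
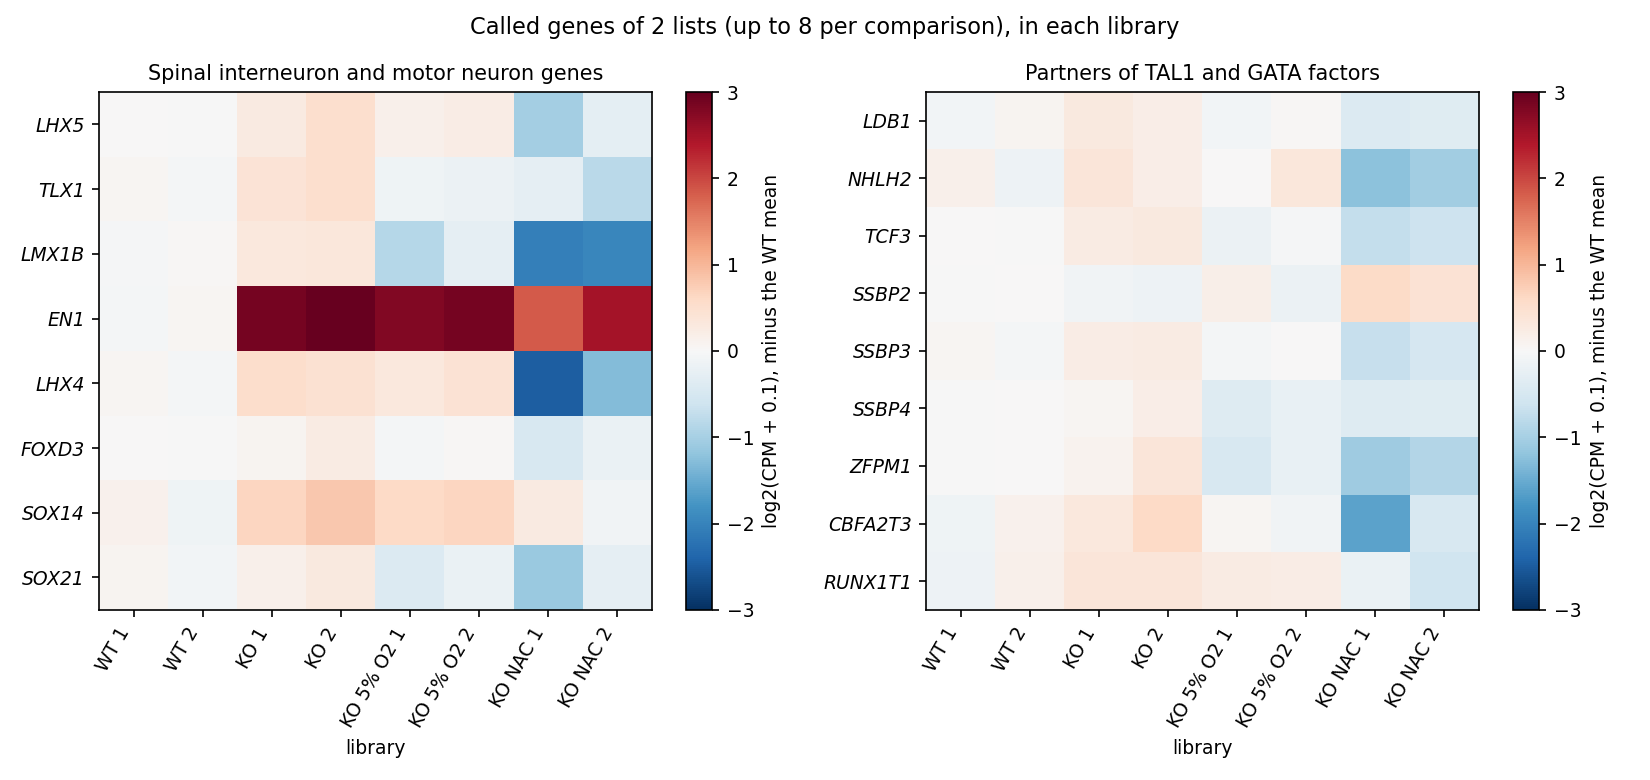
Level of called genes of spinal neurons (left) and of partners of TAL1 and the GATA factors (right) in each of the 8 libraries, as log2(CPM + 0.1) minus the mean of the WT libraries, with at most 8 genes per list and comparison. EN1 is above WT in all 6 KO libraries, and LMX1B and LHX4 are lowest in the NAC libraries.

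Of 16 genes of the blood-forming program, 4 fell with NAC and 1 rose, and the 4 are a share near the 20.8% of all tested genes called lower. With NAC replicate 1 left out, 3 of 17 fell and 1 rose. MECOM, a zinc finger factor of blood stem cells, fell by 1.37 (SE 0.22, adjusted p = 0.000406), KLF1, a factor of red cell precursors, by 1.57 (SE 0.53, adjusted p = 0.0307), ETV6 by 0.81 (SE 0.12, adjusted p = 0.000269) and ERG by 0.53 (SE 0.14, adjusted p = 0.00749). KIT rose by 0.81 (SE 0.09, adjusted p = 3.55e-05). Without that library KLF1 was at -1.46 (adjusted p = 0.0975), and MECOM at -1.05, ETV6 at -0.81, ERG at -0.47 and KIT at 0.81 passed. Of neural progenitor markers 8 of 18 fell and 1 rose (6 of 21 and 3 without that library), and of the pluripotency markers 7 of 15 fell and 3 rose (8 and 4 of 15 without it). Mesenchymal markers rose, 5 of 9 tested against untreated KO, led by COL6A3 at 1.14 and 1.75 CPM in KO and 103.5 and 1.03 with NAC. Without NAC replicate 1, 1 of those 9 rose and 2 fell.

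Against KO at 5% O2, genes of spinal neurons again fell with NAC, 5 of 13 tested, and none rose. The shares of all tested genes were 13.6% lower and 15.5% higher. LHX4 fell by 2.18 (SE 0.27, adjusted p = 0.000453) and LMX1B by 1.48 (SE 0.18, adjusted p = 0.000394), and they were at -1.69 and -1.44 without NAC replicate 1. Of the 19 partners 8 fell and 1 rose, of 15 genes of progenitor domains 1 fell, which was NES, and of 16 blood genes 3 fell and 1 rose. Without NAC replicate 1, 5 of 17 genes of spinal neurons fell, 7 of 20 partners fell and none rose, 3 of 16 genes of progenitor domains fell, and 2 of 17 blood genes fell and 1 rose. These comparisons share the NAC libraries with the one before.

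Neighbouring genes on the chromosome were read beside OLIG3, DBX1 and TAL1. They are the nearest genes on each side that passed the filter on low counts, and genes that it left out can lie between. For OLIG3, at 1.96 in KO against WT and -1.33 with NAC against untreated KO on the log2 scale, these were IFNGR1, with starts 275 kb apart, at -0.26 and 1.08, and TNFAIP3, 373 kb apart, at 0.60 and -0.68. For DBX1, at 1.12 and -0.32, they were HTATIP2, 203 kb apart, at 0.18 and 0.05, and NAV2, 810 kb apart, at 0.26 and -0.95. For TAL1, at 1.32 and 1.05, they were STIL, 82.7 kb apart, at 0.12 and 0.0042, and CYP4X1, 209 kb apart, at 0.41 and 0.61. None of these 6 neighbours passed in KO against WT, and IFNGR1 and NAV2 passed with NAC (adjusted p = 5.7e-05 and 6.009e-05). With NAC replicate 1 left out, the values with NAC were 0.96 for IFNGR1, -0.93 for TNFAIP3, 0.13 for HTATIP2, -1.03 for NAV2, -0.0049 for STIL and 0.79 for CYP4X1, and TNFAIP3 and CYP4X1 then passed too (adjusted p = 0.0264 and 0.0432). AATF, whose start is 12.1 kb from that of LHX1, has 94.4% of its 31-base words on alternate-locus scaffolds.

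The genes whose log2 CPM was most like each member over the 8 libraries were found by Pearson's r, as a description in which the points share the 4 groups. TAL1 was nearest to ZNF557 (r = 0.990, rho = 0.976), VWC2 and MEIS2, a homeodomain partner of HOX proteins. OLIG3 was nearest to XK (r = 0.987, rho = 0.929), SLC9A8 and VENTX, and GATA2 to UBQLN4 (r = 0.983, rho = 0.976), a ubiquilin of the same family as UBQLN1, PAQR7 and PANK2. DBX1 was nearest to LMNTD2, LINC01001 and GALR1, GATA3 to JUN, LINC01116 and FAM50B, LMO2 to DPPA5, CCDC69 and PLEKHH2, and OLIG2 to RPL32P3, HACD4 and NUDT1, with r from 0.921 to 0.969. By Spearman's rho in place of r, the first 3 genes were others for all members except OLIG2, which kept 1 of its 3. Ties limit this ranking: PAQR7 had rho = 1 with GATA2, the highest possible value, and was still not among the 3 taken. The order of tied genes is arbitrary, so this is no disagreement for PAQR7. Among the members, DBX1 and OLIG3 had r = 0.861 (rho = 0.476), GATA2 and GATA3 r = 0.813 and GATA2 and TAL1 r = -0.345.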

How the data were processed

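RNA of WA26 hESCs was sequenced in 12 labelled samples, of which 8 libraries in 4 groups of 2 were analysed and 4 were not analysed here. The deposited values are raw counts, made by the authors with featureCounts at its defaults, which ignore strand and leave out reads that match several places or genes, after trim-galore had trimmed the reads and hisat2 had mapped them on hg38. The annotation they used is not given in the sources used here. From 68.5% to 72.0% of gene counts from 1 to 10 were even numbers, so 1 count may not be 1 independent fragment. Limits from counts cover counting error only, while the intervals of log2 differences use the standard errors of the test.

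The filter on low counts was filterByExpr with a minimum count of 10. Library sizes were scaled by TMM. The test was edgeR's quasi-likelihood test (edgeR 4.0.16, R 4.3.3), with 1 term per group over all 8 libraries and no block, which left 4 residual degrees of freedom. The biological coefficient of variation was 13.7%, so low counts and 2 libraries per group limit the precision. The Benjamini-Hochberg adjustment ran over all 15916 tested genes, and called means an adjusted p under 0.05. Standard errors were derived from the test statistic. CPM use TMM library sizes and RPKM the longest transcript of GENCODE. The computation was tested on simulated counts. The members and gene lists were chosen with earlier results of these data known. Named genes are the 9 members, the 3 genes most like each, up to 8 called genes per list and comparison, and UBQLN1. Genes of the figure of fibroblast markers, OLIG1's counts and the genomic neighbours were added after their values were seen.

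Alternatives were DESeq2 1.42.0, RLE normalization, 2 other filters, a replicate block, fitting just the libraries of each comparison, a trend of length and GC (mgcv 1.9.3, known for 96% of tested genes), that trend with the block, leaving out each library, and Spearman's rho.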

Additional observations from a re-analysis of the deposited data

How the results depend on the processing

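The directions of OLIG3, GATA2 and TAL1 held under every alternative run in 4 comparisons. These were KO with WT, each treatment with untreated KO, and the treatments with each other. The genes were chosen on KO against WT, so their direction there was fixed in advance, and the comparisons with untreated KO share those libraries. OLIG3 with NAC against WT, 0.63, ran from -0.55 to 1.29. These 4 differences reversed when 1 library was left out. DBX1 with NAC reached 0.048 against untreated KO (range with each library left out -0.81 to 0.048) and 0.18 against 5% O2 (range -0.67 to 0.18), both without KO with NAC replicate 1. LMO2 with NAC against 5% O2 reached -0.12 and OLIG2 at 5% O2 against untreated KO reached -0.48 (range -0.48 to 0.97), both without KO at 5% O2 replicate 2. Genes called in KO against WT, 312 (213 higher, 99 lower), became 841 by DESeq2, 1252 with no filter, 1124 with only the libraries compared, 200 (100 higher, 100 lower) after the removal of a length and GC trend, and 64 to 1311 with each library left out. Members called with NAC against 5% O2, 2, became 1 with only the libraries compared and 0 to 3 with each library left out. Partners called, 0 in both comparisons with untreated KO, became 1 with no filter (LMO2 in each) and, at 5% O2, 1 with only the libraries compared, and ranged from 0 to 1 with each library left out. TAL1 with NAC against 5% O2 passed with no filter (adjusted p = 0.0125) and after the removal of the trend (adjusted p = 0.0375). Other counts that moved by over 1.5 times were, at 5% O2 against KO, 1243 to 2097 (DESeq2), 2220 (no filter), 3009 (only the libraries compared) and 400 (the trend, 328 higher and 72 lower), with NAC against KO, 7100 to 4542 (the trend), and with NAC against 5% O2, 4635 to 3050 (only the libraries compared) and 2731 (the trend). The cause was not tested. With each library left out they ran from 36 to 2763, 5031 to 7591 and 1354 to 5468.

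The replicate numbers did not pair the samples: deviations from the group means correlated by -0.023 to 0.082. With a replicate block 366 genes were called in KO against WT, 1417 at 5% O2 and 7173 with NAC against KO, and 4796 with NAC against 5% O2, and no member changed its call. With the block and the length and GC trend these counts were 174 (86 higher, 88 lower), 306, 4339 and 2586.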
